A study of Petromyzon marinus with 17 samples.

Results

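Non-methylated islands (NMIs) of adult peripheral blood mononuclear cells (PBMCs) were compared with those of day 1 embryos in the sea lamprey (Petromyzon marinus). The members were all NMIs in the lists of the PBMC and day 1 libraries, 2 replicates each and 4 of the 12 BioCAP libraries of the series. A base counted for a tissue when an NMI covered it in replicate 1 and in replicate 2, and overlapping or touching stretches of both tissues were merged. This gave 137061 merged NMIs, against 166793 when all 6 tissues of the series (PBMC, brain and muscle, sperm, and embryos of day 1 and day 2) were merged in the same way. The PBMC group comprised adult animals and the day 1 group embryos on the first embryonic day, a cleavage stage that precedes activation of the zygotic genome. No treatment or allele distinguished any of the groups. PBMCs are a mixture of blood cell types. The study describes its replicates as biological and the PBMC replicates as 2 male animals, so the PBMC spread is between animals; whether the day 1 replicates were separate clutches is not given in the sources used here. The labels list an input library for each tissue except PBMC.

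NMIs are stretches of DNA in which CpG sites escape cytosine methylation. In vertebrates they mark most CpG islands and many gene promoters, and methylation spreading into them is associated with stable gene silencing. BioCAP uses a CxxC zinc-finger domain, taken from the human protein KDM2B, as bait for unmethylated CpG sites in sonicated genomic DNA, so that CpG-dense unmethylated stretches appear as peaks of reads. An NMI here is one peak called in one library. A region without an NMI is one in which no peak was called, which is not the same as a methylated region.

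The lists of both tissues were of similar length, but they differed in how well replicates matched. PBMC replicates held 115448 and 117044 NMIs, and day 1 replicates held 119911 and 117229 NMIs. The NMIs covered 66.0 and 74.0 Mb in PBMC libraries, against 63.3 and 64.4 Mb in day 1 libraries. The median width was 448 and 496 bp in PBMC libraries and 418 and 437 bp in day 1 libraries. The ranges did not overlap for any of these quantities, but with 2 libraries per tissue the exact two-sided permutation test cannot give a p below 0.333, the value found for all 3. The PBMC replicates shared 0.809 of their combined bases (Jaccard index), whereas the day 1 replicates shared 0.693. Pairs of a PBMC and a day 1 library shared between 0.484 and 0.512, a lower value than in either pair of replicates. The mean within tissues exceeded the mean between tissues by 0.254 (one-sided exact permutation test over 3 splits, p = 0.333, the smallest p this design allows). The deposited lists hold no read counts. The study lists the day 1 libraries with fewer uniquely mapped reads than the PBMC libraries, so sequencing depth and tissue cannot be told apart here.

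Most merged NMIs were found in both tissues. Kept NMIs, with bases from PBMC and from day 1, numbered 74365 or 54.3% of the merged NMIs. PBMC-only NMIs, absent from the NMIs shared by the day 1 replicates (gained in PBMC), numbered 35089 or 25.6%. Day 1-only NMIs, absent from the NMIs shared by the PBMC replicates (lost in PBMC), numbered 27607 or 20.1%. Seen from each tissue, 31.7% of 110518 PBMC NMIs and 26.0% of 106301 day 1 NMIs had no counterpart.

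**Figure D1:**
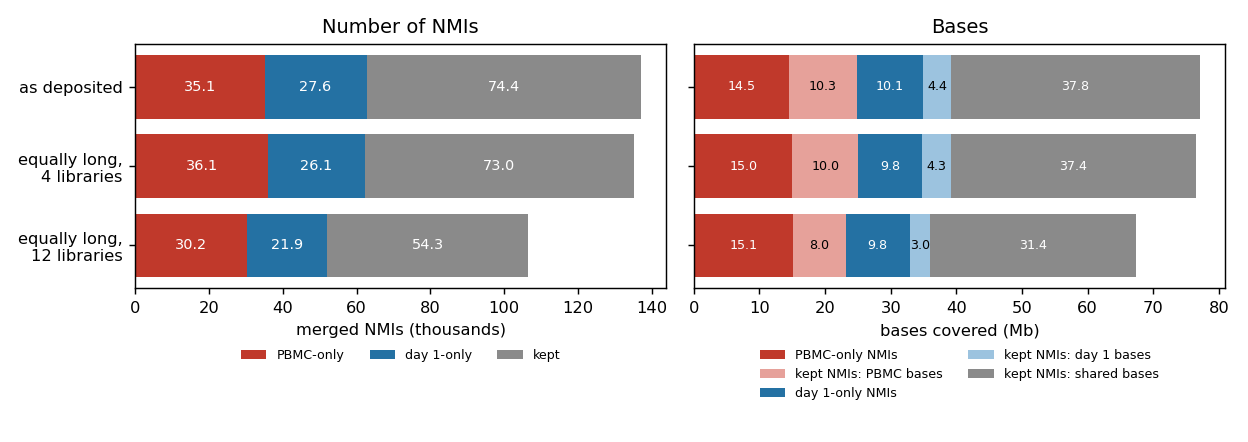
Merged NMIs of PBMC and day 1 by class, as numbers of NMIs in units of 1000 (left) and as Mb covered (right), with the lists as deposited, with the 4 libraries trimmed to 115448 NMIs each and with all 12 libraries trimmed to 89979 NMIs each. Bars are single values without error; PBMC-only NMIs outnumbered day 1-only NMIs in all 3 settings, and bases shared by both tissues made up the largest part of each bar on the right.

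Whether gains or losses prevailed depended on how the replicates were combined. By the rule above, PBMC-only NMIs were 1.27 times as many as day 1-only NMIs, and 1.38 times as many with equally long lists. When a single PBMC library was set against a single day 1 library, the ratio was 0.941 and 0.996 for PBMC replicate 1 and 1.05 and 1.13 for PBMC replicate 2. When an NMI of either replicate counted for its tissue, the ratio was 0.854. A stretch had to be called in both replicates to count, and the day 1 replicates matched each other less well. Of the PBMC-only NMIs, 4645 were overlapped by an NMI of day 1 replicate 1 alone and 6012 by one of day 1 replicate 2 alone and 83 by NMIs of both that did not overlap each other there, which left 24349 (69.4%) without an NMI in either. Of the day 1-only NMIs, 1382 were overlapped in PBMC replicate 1 alone and 3399 in PBMC replicate 2 alone and 4 in both apart, which left 22822 (82.7%) without an NMI in either. The ratio of these stricter counts was 1.07.

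With NMIs common to both replicates, most of the difference in bases lay in separate NMIs rather than at the edges of kept ones. Of 77.1 Mb covered in all, 37.8 Mb (49.1%) belonged to both tissues. PBMC-only NMIs held 14.5 Mb (18.8%) and day 1-only NMIs held 10.1 Mb (13.1%). A further 10.3 Mb (13.4%) were PBMC bases and 4.37 Mb (5.67%) were day 1 bases within kept NMIs that did not reach as far in the other tissue. NMIs without an NMI in either replicate of the other tissue held less, 10.1 Mb among PBMC-only and 8.36 Mb among day 1-only NMIs. The bases were not divided anew by that stricter rule. With all 12 libraries trimmed to equal length, PBMC-only NMIs held 22.4% and day 1-only NMIs 14.5% of the bases.

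NMIs found in one tissue were narrow. Since a kept NMI joins the stretches of both tissues and is wider by construction, stretches of the same tissue were compared. PBMC stretches had a median width of 353 bp in PBMC-only and 511 bp in kept NMIs, and day 1 stretches 313 bp in day 1-only and 431 bp in kept NMIs. Widths under 300 bp were found for 30.7% of PBMC stretches in PBMC-only and 10.2% in kept NMIs, and for 44.7% of day 1 stretches in day 1-only and 18.4% in kept NMIs. Widths over 1 kb were found for 2.19% and 13.8% of PBMC stretches and for 1.54% and 8.18% of day 1 stretches in the same order. With all 12 libraries trimmed to equal length, the medians were 428 and 582 bp for PBMC stretches and 377 and 489 bp for day 1 stretches.

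Kept NMIs were mostly 1 stretch in each tissue, and somewhat wider in PBMC. A single PBMC stretch faced a single day 1 stretch in 69525 kept NMIs (93.5%), while 3818 (5.13%) joined 1 PBMC stretch to several day 1 stretches and 889 (1.20%) several PBMC stretches to 1 day 1 stretch. The single stretches had a median width of 496 bp in PBMC and 429 bp in day 1. The median difference was 51 bp (quartiles −30 and 143 bp), and 66.6% were wider in PBMC. Between single libraries, the median difference was 14 and 7 bp for PBMC replicate 1 and 59 and 52 bp for PBMC replicate 2, set against day 1 replicates 1 and 2. The NMIs of PBMC replicate 1 were themselves a median of 42 bp narrower than those of replicate 2, so the difference between tissues was not clearly larger than the spread between PBMC replicates. A difference of more than 500 bp was rarer, with 2466 NMIs wider in PBMC and 838 wider in day 1.

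**Figure D2:**
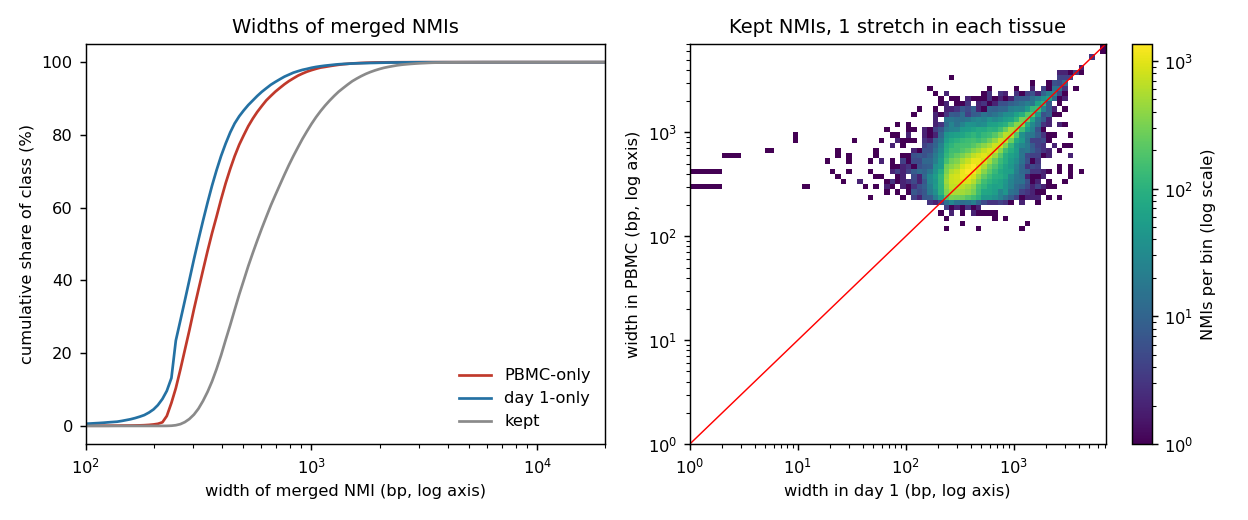
Left, cumulative share (%) of PBMC-only, day 1-only and kept merged NMIs by width (bp, log axis), with medians of 353, 313 and 568 bp; a kept NMI joins the stretches of both tissues and is wider by construction. Right, width in PBMC against width in day 1 (bp, log axes) for the 69525 kept NMIs with 1 stretch in each tissue, coloured by the number of NMIs per bin on a log scale; the red line marks equal width, 66.6% of the NMIs lie above it, and 77 stretches shared by the day 1 replicates and 0 shared by the PBMC replicates are under 100 bp wide.

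The position of the summit, the base with the highest signal in a peak, was not used to define the classes. In 68546 kept NMIs with 1 peak in each of the 4 libraries, summits of the PBMC replicates lay a median of 19 bp apart and summits of the day 1 replicates 36 bp apart. Summits of PBMC and day 1 libraries lay a median of 35 to 39 bp apart, close to the distance between the day 1 replicates. Peaks that overlap the same kept NMI can lie only so far apart, and no expected distance was computed. The height of the peaks differed more between tissues than between replicates. Across these NMIs, the fold enrichment over background ranked similarly in the PBMC replicates (Spearman's rho 0.920) and in the day 1 replicates (0.780), but less so between a PBMC and a day 1 library (0.367 to 0.470). NMIs are not independent replicates, and these values share the CpG content of the NMI and the depth of the library. PBMC is also the only tissue without a listed input library, and the part of inputs in these values was not tested.

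The strength of an NMI in its own list went along with its being kept. Fold enrichment and −log10 q, the evidence for a peak as given by the peak caller, are compared within a list, since both depend on depth. Kept NMIs had a median fold enrichment of 16.3 and 13.7 in PBMC replicates 1 and 2, where PBMC-only NMIs had 9.10 and 7.97. In day 1 replicates 1 and 2, kept NMIs had 9.92 and 10.1 and day 1-only NMIs had 6.71 and 6.48. When each list was split into 10 equal groups (deciles) by −log10 q, the share of NMIs overlapping the other tissue was 39.9% and 33.2% in the weakest decile of PBMC replicates 1 and 2, and 39.5% and 40.8% in that of day 1 replicates 1 and 2. In the strongest decile it was 91.6% and 92.0% in PBMC and 89.4% and 91.7% in day 1. NMIs of one tissue were not all weak. Among PBMC-only NMIs 10.6% of those in either replicate fell into the strongest quartile of the list, as did 13.1% and 11.3% of day 1-only NMIs in day 1 replicates 1 and 2. Of the stretches whose NMIs lay above the median −log10 q of the list in both replicates, 6388 of 54060 (11.8%) in PBMC had no NMI in either day 1 replicate, and 5547 of 50080 (11.1%) in day 1 had none in either PBMC replicate. These were smaller shares than among all stretches, where it was 24349 of 110518 in PBMC and 22822 of 106301 in day 1.

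**Figure D3:**
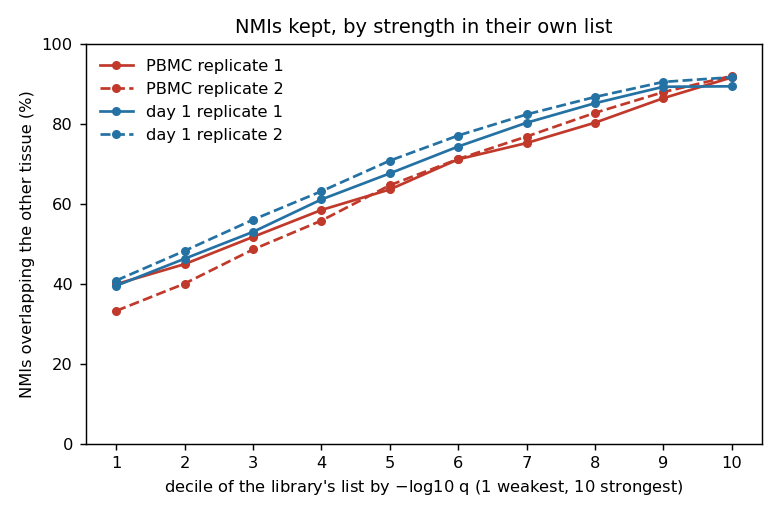
Share (%) of the NMIs of each library that overlapped the NMIs of the other tissue, by decile of the library's own list ordered by −log10 q. Each line is 1 library, PBMC in red and day 1 in blue; all 4 lines start between 33.2% and 40.8% in the weakest decile and end between 89.4% and 92.0% in the strongest.

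The libraries of the other 4 tissues, which did not enter the classes, separated PBMC-only from day 1-only NMIs. Day 2 embryos are a later stage before activation of the zygotic genome, and brain and muscle are adult somatic tissues like PBMC. PBMC-only NMIs overlapped NMIs common to both sperm replicates in 41.0% of cases and day 1-only NMIs in 85.6%, against 81% of all merged NMIs. For day 2 the shares were 7.71% and 43.2%, against 54.5% of all merged NMIs. PBMC-only NMIs were thus found in sperm and day 2 less often than the merged NMIs as a whole, whereas day 1-only NMIs were close to the whole in sperm and, with the lists as deposited, below it in day 2. For brain the shares were 80.7% of PBMC-only and 51.5% of day 1-only NMIs, against 84.1% of all merged NMIs, and for muscle 74.2% and 52.9%, against 82.1%. Here PBMC-only NMIs lay slightly below the whole and day 1-only NMIs far below it. Kept NMIs reached 80.8% in day 2 and between 96.6% and 98.2% in the other 3 tissues. The day 2 lists were the shortest of the series. The study lists the day 2 libraries, like those of day 1, with a much smaller share of uniquely mapped reads than the other tissues. Low depth shared by both embryonic days and embryonic stage therefore cannot be told apart in the day 2 shares. Equally long lists do not make depth equal.

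These differences were larger than the spread between the 2 libraries of a tissue. In sperm, PBMC-only NMIs were overlapped in 42.5% and 47.8% of cases and day 1-only NMIs in 86.1% and 91.6%, by replicates 1 and 2. In brain, the shares were 84.0% and 87.1% for PBMC-only NMIs and 52.8% and 66.0% for day 1-only NMIs. With all 12 libraries trimmed to equal length, PBMC-only and day 1-only NMIs were found in sperm in 34.4% and 77.1% of cases, against 75.04% of all merged NMIs, and in day 2 in 22.8% and 66.2%, against 67.1%. In brain they were found in 71.1% and 39.2%, against 77.0%, and in muscle in 58.6% and 36.0%, against 70.8%. The order of both classes was therefore the same in every tissue, but day 1-only NMIs were then close to the whole in day 2, so that their shortfall there was lost. NMIs without any overlap in either replicate of the other tissue gave the same order, with 23.0% of PBMC-only and 84.6% of day 1-only NMIs in sperm and 76.5% and 45.8% in brain.

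**Figure D4:**
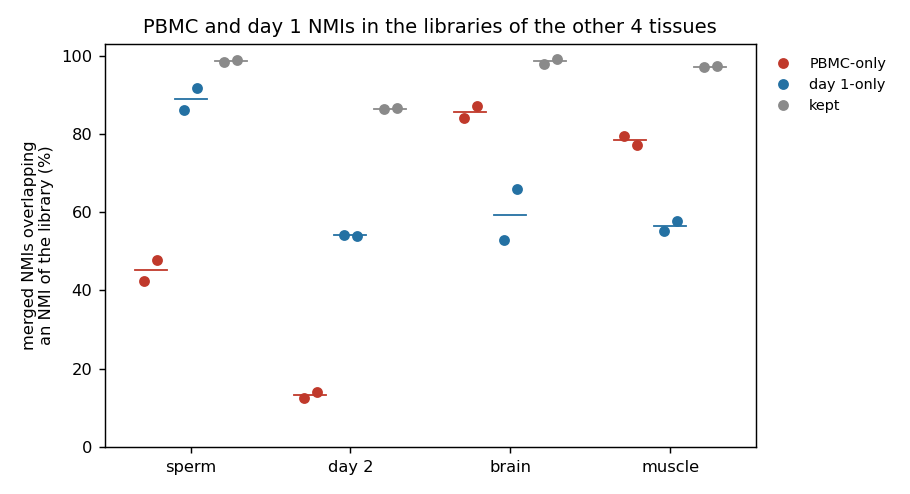
Share (%) of PBMC-only, day 1-only and kept merged NMIs that overlapped an NMI of each library of sperm, day 2, brain and muscle. Points are the 2 replicates and lines their mean; PBMC-only NMIs lie below day 1-only NMIs in sperm and day 2 and above them in brain and muscle.

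By combination of tissues, 17197 PBMC-only NMIs (49.0%) were found in brain or muscle and in neither sperm nor day 2, whereas 821 (2.34%) were found in sperm or day 2 and in neither brain nor muscle. Among day 1-only NMIs, 1477 (5.35%) were of the first kind and 7651 (27.7%) of the second. In all merged NMIs these kinds made up 14.2% and 6.54%. Both brain and muscle held 66.7% of PBMC-only and 38.7% of day 1-only NMIs, against 76.5% of all merged NMIs. None of the other 4 tissues held 3312 PBMC-only NMIs (9.44%) or 1819 day 1-only NMIs (6.59%), against 3.78% of all merged NMIs. These were narrow, with medians of 285 and 251 bp. The 2 most frequent combinations of PBMC-only NMIs were brain with muscle (11964, 34.1%, against 9.66% of all merged NMIs) and sperm with brain and muscle (8975, 25.6%, against 18.0%). For day 1-only NMIs they were all 4 tissues (5769, 20.9%), which was below the 48.2% of all merged NMIs, and sperm alone (4691, 17.0%), which was above the 4.20% of all merged NMIs.

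The strength of an NMI in its own list was related to its presence in other tissues, least so for PBMC-only NMIs in sperm. From the weakest to the strongest quartile of day 1-only NMIs in day 1 replicate 1, the share found in day 2 was 12.7%, 25.3%, 50.2% and 84.5%, and that in sperm 72.6%, 84.1%, 91.3% and 94.4%. The shares in brain and muscle were higher in the strongest (61.7% and 64.4%) than in the weakest quartile (42.6% and 39.6%). For PBMC-only NMIs in PBMC replicate 1, the share in brain was 65.7%, 74.2%, 86.3% and 96.8%, and that in day 2 was 2.48%, 4.10%, 8.36% and 15.9%. The share in sperm was 39.1%, 41.6%, 43.5% and 39.9%, and in PBMC replicate 2 it was 35.4%, 43.1%, 46.6% and 39.1%. Strong PBMC-only NMIs were therefore nearly all found in brain, whereas the strongest and weakest quartiles differed by a few percentage points in sperm. For comparison, 84.1% of all merged NMIs and 97.8% of kept NMIs were found in brain, and 81.01% and 98.2% in sperm. Kept NMIs were not split by quartile here. Whether the high shares in the strongest quartiles are particular to PBMC-only or day 1-only NMIs was therefore not tested.

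Positions of single NMIs are given from 1 on the petMar3 assembly. The 3 widest PBMC-only NMIs were found in both brain and both muscle libraries and in no sperm or day 2 library. The widest, PIZI01000057v1 from 2330838 to 2334039 (3202 bp), had a fold enrichment of 50.5 and 31.4 in PBMC replicates 1 and 2. A 245-bp NMI with a fold enrichment of 4.66 lay within it in day 1 replicate 1, and none in day 1 replicate 2. The second, PIZI01000001v1 from 20822765 to 20825827 (3063 bp), had 26.7 and 20.7 in PBMC, and the third, PIZI01000058v1 from 1193494 to 1196485 (2992 bp), had 68.1 and 43.8. Neither had an NMI in a day 1 replicate.

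The widest day 1-only NMI was nearly the whole mitochondrial sequence, which in vertebrates carries little CpG methylation. It ran from 59 to 15993 in day 1 replicate 1 (15935 bp, fold enrichment 8.45) and from 70 to 15919 in day 1 replicate 2 (15850 bp, 8.98). No mitochondrial NMI was called in either PBMC, sperm or muscle replicate. Both day 2 replicates had 2 shorter NMIs there (735 to 897 bp), and brain replicate 1 had one of 323 bp. PBMC is the tissue without a listed input library, whereas sperm and muscle each have one. The part of inputs in the difference was not tested. The study reports depleted CpG methylation in the mitochondrial genome, so a missing peak here is not read as methylation. The next widest day 1-only NMIs were PIZI01007837v1 from 400 to 5192 (4793 bp), with a fold enrichment of 7.91 and 4.84 in day 1 replicates 1 and 2, and PIZI01006375v1 from 2754 to 6994 (4241 bp), with 6.85 and 6.48. Both were also called in day 2 and sperm, and PIZI01006375v1 in brain.

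The widest kept NMI, PIZI01000015v1 from 3914220 to 3921718 (7499 bp), was 5 separate NMIs in each PBMC replicate and 1 NMI in each day 1 replicate. The PBMC NMIs covered 5971 and 5066 of its bases, against 7492 and 7450 in day 1. PIZI01000098v1 from 513550 to 520421 (6872 bp) held 2 NMIs in each PBMC replicate, and 4 and 2 in day 1 replicates 1 and 2. PIZI01000122v1 from 666254 to 673037 (6784 bp) had 2 NMIs in every one of the 4 libraries.

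Among kept NMIs with a single stretch per tissue, the largest width differences were several-fold. PIZI01000006v1 from 19147684 to 19151043 measured 3360 bp in PBMC and 251 bp in day 1, PIZI01000026v1 from 11421272 to 11423798 measured 2527 and 176 bp, and PIZI01000001v1 from 18462284 to 18464709 measured 2426 and 236 bp. The first spanned at least 3269 bp in each brain and muscle library as well, whereas the second was absent from brain replicate 2 and muscle replicate 2 and 219 and 240 bp wide in the other replicate of each. Sperm NMIs covered 1752 and 1648 bp of the second in replicates 1 and 2. Day 1 NMIs covered 242 and 644 bp of it in replicates 1 and 2, of which 176 bp were shared. In the other direction, PIZI01000040v1 from 10931817 to 10935844 measured 415 bp in PBMC and 4027 bp in day 1, PIZI01000108v1 from 560517 to 563891 measured 389 and 3375 bp, and PIZI01000052v1 from 431601 to 434987 measured 441 and 3387 bp. All 3 spanned their full width in both sperm replicates. PBMC was therefore the exception among the tissues at PIZI01000040v1 and PIZI01000052v1. At PIZI01000040v1 its NMIs covered 669 bp or less and those of each brain and muscle library 2449 bp or more. At PIZI01000052v1 the values were 484 bp or less and 2220 bp or more. At PIZI01000108v1 the PBMC NMIs covered 509 bp or less, those of brain replicates 1 and 2 covered 1070 and 1743 bp, and those of muscle 3273 bp or more.

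The merged NMIs lay on 4831 scaffolds, most of which held few of them. The 141 scaffolds with 50 or more merged NMIs held 90.0% of all. On these, the median share of PBMC-only NMIs was 26.0% (range 11.6% to 72.0%) and that of day 1-only NMIs 18.7% (range 2.74% to 43.5%). PBMC-only NMIs were more numerous on 126 scaffolds, day 1-only NMIs on 14, and both were equal on 1. This count followed the overall ratio of both classes: PBMC-only NMIs prevailed on 131 of 140 scaffolds with the 4 libraries trimmed to equal length, but on 60 of 152 when an NMI of either replicate counted. Single scaffolds stood apart from it. On the 4061 scaffolds with fewer than 5 merged NMIs, 26.4% of 6977 were PBMC-only, 28.7% day 1-only and 44.9% kept.

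The 5 scaffolds with the largest excess of PBMC-only NMIs were PIZI01000191v1 (36 PBMC-only and 5 day 1-only of 50 merged NMIs), PIZI01000204v1 (38 and 9 of 59), PIZI01000156v1 (35 and 2 of 73), PIZI01000098v1 (152 and 23 of 296) and PIZI01000137v1 (28 and 7 of 52). PIZI01000191v1 held 45 and 47 NMIs in PBMC replicates, against 17 and 18 in day 1 replicates, and PIZI01000098v1 held 284 and 278, against 181 and 172. The excess on PIZI01000098v1 was between 38.6 and 40.7 percentage points in all 4 pairs of single libraries. The scaffolds were picked with these same libraries, so ranges over the pairs describe the spread between replicates and are not an independent check. At the other end were PIZI01000112v1 (11 PBMC-only and 33 day 1-only of 95), PIZI01000066v1 (15 and 30 of 69), PIZI01000069v1 (63 and 104 of 339), PIZI01000215v1 (11 and 13 of 62) and PIZI01000104v1 (32 and 36 of 134). On PIZI01000112v1, PBMC replicates held 67 and 64 NMIs and day 1 replicates 100 and 98. Its difference was −29.3 to −26.4 points over the 4 pairs, but −5.88 with all 12 libraries trimmed to equal length. On PIZI01000066v1 it was −31.3 to −21.5 points over the pairs and −23.1 with the trimmed lists. Over the pairs it was −9.52 to 6.15 points on PIZI01000215v1 and −12.5 to 0 on PIZI01000104v1, so that neither stood apart from equal shares.

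**Figure D5:**
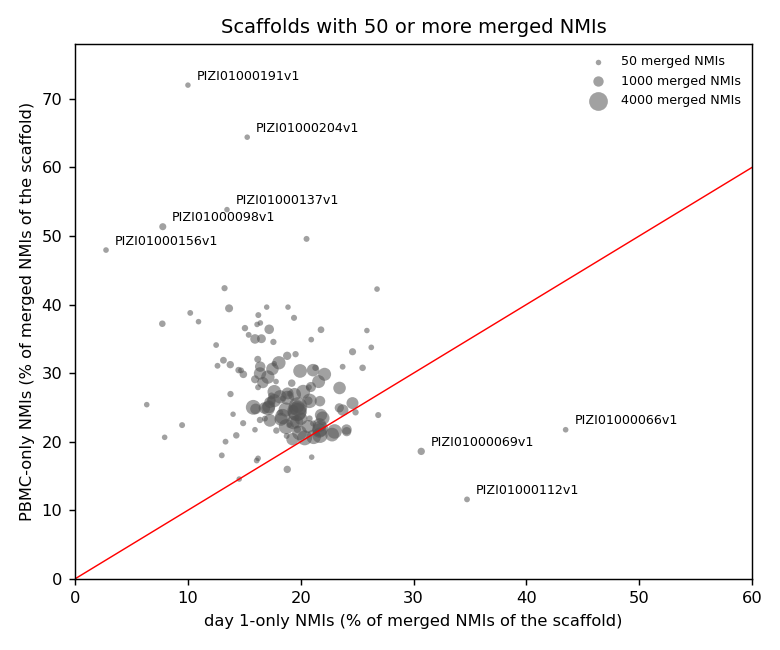
Share of PBMC-only NMIs against share of day 1-only NMIs (% of the merged NMIs of a scaffold) on the 141 scaffolds with 50 or more merged NMIs. Each point is 1 scaffold, its area grows with the number of merged NMIs and the red line marks equal shares; 126 points lie above the line, and the 5 scaffolds at the upper left and 3 at the lower right are named.

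Some scaffolds carried NMIs of one tissue and none of the other. In lampreys, part of the genome is eliminated from somatic lineages during embryogenesis, so that germline sequences can be missing from adult somatic cells. The study reports that its eliminated sequences were highly methylated and low in BioCAP signal in sperm and early embryos. Whether any scaffold named here is among the eliminated sequences was not tested. NMIs of both PBMC replicates and no day 1 replicate were found on 464 scaffolds, with 614 and 608 NMIs, and NMIs of both day 1 replicates and no PBMC replicate on 735 scaffolds, with 1043 and 972 NMIs. Most of these scaffolds held a single NMI in one of the replicates (383 and 605), and 18 and 33 held 3 or more in both. Of the 464 PBMC scaffolds, both brain replicates had NMIs on 360, muscle on 323, sperm on 127 and day 2 on 19. Of the 735 day 1 scaffolds, sperm had NMIs on 597, day 2 on 408, brain on 231 and muscle on 232. For comparison, PBMC replicates 1 and 2 had NMIs on 4268 and 4136 scaffolds in all, and day 1 replicates on 4608 and 4388. How many of all scaffolds had NMIs in the other tissues is not given here. Whether these scaffolds differ from scaffolds in general was therefore not tested.

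The PBMC scaffolds with most NMIs were PIZI01003093v1 (6 and 5 in PBMC replicates), PIZI01000296v1 and PIZI01001637v1 (4 and 5 each). All 3 also carried NMIs in every brain and muscle library. PIZI01000296v1 held 1 NMI in each sperm replicate and PIZI01003093v1 held 1 in day 2 replicate 2. PIZI01001637v1 had none in sperm or day 2 libraries. The day 1 scaffolds with most NMIs differed from each other. PIZI01004468v1 held 10 and 10 NMIs in day 1 replicates and 8 and 10 in day 2 replicates, and none in any other library. PIZI01000490v1 held 10 and 8 in day 1, 7 and 9 in sperm and 6 and 5 in day 2, and none in brain, muscle or PBMC. PIZI01001168v1 held 7 and 8 in day 1, with a median fold enrichment of 27.3 and 23.2, and between 6 and 10 in every other library except those of PBMC, where none was called. Without the sequence or its read depth, a scaffold without NMIs in PBMC cannot be told apart from a scaffold without reads.

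NMIs of one tissue lay near each other along the scaffolds. The nearest merged NMI was also PBMC-only for 44.7% of PBMC-only NMIs, although 25.6% of merged NMIs were of that class, and also day 1-only for 32.1% of day 1-only NMIs, against 20.1%. Set against the share of the class, this was 1.74 and 1.59 times as often. For kept NMIs the share was 62.5%, against 54.3%, or 1.15 times as often. This ratio cannot rise as far for a larger class, so the classes are not ranked by it. Over the 4 pairs of single libraries the ratio was 1.85 to 2.04 for PBMC-only and 1.45 to 1.58 for day 1-only NMIs. With all 12 libraries trimmed to equal length it was 1.57 and 1.52.

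Runs of neighbouring PBMC-only NMIs, the larger class, were longer than runs of day 1-only NMIs. Runs of 3 or more held 13999 PBMC-only NMIs (39.9%) and 5970 day 1-only NMIs (21.6%), and there were 185 and 12 runs of 10 or more. For kept NMIs, the largest class, the values were 63.1% and 494 runs. Runs lengthen with the share of a class, and its part in these values was not tested. With the 4 libraries trimmed to equal length the shares of PBMC-only and day 1-only NMIs were 40.3% and 20.9%. The longest PBMC-only run, on PIZI01000098v1 from 585056 to 672622, held 31 NMIs, of which 26 were found in brain, 30 in muscle, 2 in sperm and 0 in day 2. The next 2 held 28 NMIs each, on PIZI01000031v1 from 10880997 to 10992846 (24 in brain, 17 in muscle, 1 in sperm) and on PIZI01000020v1 from 11143961 to 11206977 (23 in brain, 25 in muscle, 0 in sperm). A single NMI of the second run was called in day 1 replicate 1, and none of the other 2 runs in either day 1 replicate. The longest day 1-only run, on PIZI01000170v1 from 140 to 190684, held 17 NMIs, of which 11 were found in sperm, 5 in day 2, 2 in brain and 3 in muscle. The run on PIZI01000059v1 from 4175367 to 4213080 held 16 NMIs, of which 15 were found in sperm, 12 in day 2, 9 in brain and 8 in muscle. The run on PIZI01000058v1 from 4631597 to 4659923 held 14 NMIs, of which 14 were found in sperm, 9 in day 2, 12 in brain and 13 in muscle. None of the 3 had an NMI in a PBMC replicate.

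PBMC-only NMIs were farther from kept NMIs. The median distance to the nearest kept NMI on the same scaffold was 4249 bp for PBMC-only and 2331 bp for day 1-only NMIs. It was at most 1 kb for 21.5% and 29.2%, and over 10 kb for 30.2% and 18.0%. In windows of 100 kb with 10 or more merged NMIs, over 50% of the NMIs were PBMC-only in 546 and day 1-only in 125 of 5163 windows. These windows were counted with NMIs common to both replicates, by which PBMC-only NMIs were the larger class. They were not counted with NMIs of either replicate, by which day 1-only NMIs were the larger class. In the window from 12200001 to 12300000 on PIZI01000002v1, named here after its values were seen, all 20 NMIs were PBMC-only.

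Pairs of tissues that share a tissue with this comparison gave similar shares of kept NMIs. The share was 54.3% for PBMC and day 1, 58.4% for PBMC and sperm, 56.1% for brain and day 1, and 57.4% for muscle and day 1. The mean Jaccard index between libraries was 0.497 for PBMC and day 1 (0.484 to 0.512), 0.548 for PBMC and sperm (0.526 to 0.572), 0.478 for brain and day 1 (0.461 to 0.498) and 0.546 for muscle and day 1 (0.525 to 0.564). Day 1 NMIs without a counterpart numbered 27607 against PBMC, 15080 against brain and 15733 against muscle, and with all 12 libraries trimmed to equal length 21887, 15805 and 18887. The brain and muscle lists were longer than the PBMC lists, and the pairs share libraries, so these values stand side by side without a test.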

How the data were processed

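BioCAP libraries of PBMC and day 1 embryos (2 replicates each) were analysed, with sperm, day 2, brain and muscle for comparison. Reads had been trimmed (trimmomatic), aligned to petMar3 (bowtie2), deduplicated (Picard) and turned into 1 peak list per library (macs2) by the authors. For macs2, neither the options nor the use of inputs is given in the sources used here. Each peak of the deposited lists has a position, a fold enrichment (ratio to local background), p-value and q-value on the −log10 scale, and a whole-number score, which was not used. Depth is not in the lists, and their lengths and replicate overlap set the precision.

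Intervals were intersected and merged in Python 3.11.15 with NumPy 2.4.6 (SciPy 1.17.1 for ranks, matplotlib 3.10.9 for plots), with a minimum overlap of 1 bp. The functions were tested on simulated lists. A tissue's NMIs are the bases shared by its replicates; lists were trimmed by −log10 q. Named are the 3 longest NMIs per class, the 3 largest width differences per direction, the 3 longest runs per class, the 5 most extreme scaffolds per direction among those with 50 or more merged NMIs, and the 3 scaffolds with most NMIs of one tissue. Comparisons, lists and the naming rule were chosen with earlier results of these data known. Exact permutation tests were run over libraries and none over NMIs, since NMIs are not replicates. Alternatives were other q-value limits, list lengths, replicate and overlap rules, merging distances, each library left out, and a replicate block. Inputs, gene annotation and sequence were not used here.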

Additional observations from a re-analysis of the deposited data

How the results depend on the processing

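Across 148 alternative values of 10 results, 93 stayed near the value reported, 52 moved further and 3 reversed direction. The 93 include the count and width difference of kept NMIs under absence from either replicate of the other tissue. That rule cannot change them. Near means within 1.5 times for a count and within 1 SD for a ratio, width or share. The SD was taken over the 4 pairs of a PBMC with a day 1 library, which share libraries. For shares found in other tissues, the SD between replicates of those tissues was used where it was larger. The Jaccard difference was judged by direction alone. The reversals all concern the ratio of PBMC-only to day 1-only NMIs (1.27), which was 0.854 with NMIs of either replicate and 0.845 and 0.806 without day 1 replicates 1 and 2. When a replicate was left out, its tissue was represented by its other list alone, while the other tissue still needed both replicates. This rule can only add bases to the first tissue. The direction in which the ratio moved was therefore largely set by the rule, reversals included, and does not measure robustness to single libraries. Leaving out each replicate gave 0.806 to 1.68 for this ratio, 28994 to 40606 PBMC-only, 24202 to 37655 day 1-only and 75491 to 79612 kept NMIs, and 4 to 102 bp for the width difference of kept NMIs. It gave 59.2% to 65.0% for PBMC-only NMIs found in brain and muscle, 74.4% to 85.2% for day 1-only NMIs found in sperm, 43.3% to 46.4% for PBMC-only and 30.1% to 36.4% for day 1-only NMIs beside one of their class, and 0.194 to 0.324 for the Jaccard difference.

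With equally long lists, the ratio was 1.38 for both trimmed lengths, and with all 12 lists trimmed the brain and muscle share was 50.9% and the sperm share 77.1%. A −log10 q of 5 or more gave a ratio of 2.05, a sperm share of 90.6% and neighbour shares of 47.1% for PBMC-only and 28.0% for day 1-only NMIs. A −log10 q of 10 or more gave 46721 kept and 11036 day 1-only NMIs, a ratio of 4.33, a brain and muscle share of 69.0%, a sperm share of 94.2% and neighbour shares of 54.3% and 22.7%. This limit removes more of a list with low −log10 q, as the day 1 lists are. It left 47809 PBMC-only NMIs, so the share of each class among the merged NMIs changed as well. A neighbour share rises with the share of its class. The neighbour shares in this section are not set against it, so whether clustering itself changed was not tested. NMIs of either replicate gave a width difference of 20 bp, shares of 63.5% and 81.4%, and neighbour shares of 45.7% and 35.5%. A reciprocal overlap of replicates gave a brain and muscle share of 62.1%. Absence from either replicate of the other tissue gave a ratio of 1.07, a brain and muscle share of 60.9% and neighbour shares of 46.4% and 30.1%. Joining stretches up to 500 bp apart gave neighbour shares of 43.7% and 29.1%.

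Replicate numbers match across tissues but nothing in the labels pairs the samples. Comparing same-numbered libraries (replicate block) gave a ratio of 1.03, a brain and muscle share of 58.2%, a sperm share of 75.5% and a day 1-only neighbour share of 33.8%. An alternative chosen after seeing the data, NMIs above the median −log10 q of each list without an NMI in either replicate of the other tissue, left 6388 PBMC-only and 5547 day 1-only NMIs, with a ratio of 1.15, a brain and muscle share of 88.7% and a sperm share of 94.9%. The cause of these shifts was not tested. Of all merged NMIs, 76.5% were found in brain and muscle and 81.01% in sperm with the lists as deposited. With all 12 lists trimmed, 75.04% were found in sperm. No such share is given for the q-value limits or for NMIs above the median. Whether the shares found there exceed those of equally strong NMIs in general was therefore not tested.

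No Jaccard value exists for the rules on presence, absence and merging, and none for the width difference when an overlap of 50% was required. The main limits are 2 libraries per tissue, an unequal match of replicates and the absence of read counts, so weak NMIs missed in a shallow library were not detectable.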

Other observations

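Kept NMIs that changed their place in the lists were found after their values were seen. The percentile by fold enrichment was taken among the 68546 kept NMIs with 1 peak in each library. In 1505 of them (2.20%), it was more than 50 points higher in each PBMC library than in each day 1 library. Their median fold enrichment was 33.7 and 24.9 in PBMC replicates 1 and 2, against 5.34 and 6.01 in day 1 replicates 1 and 2. In 2005 NMIs (2.93%) the percentile was more than 50 points higher in each day 1 library, with 6.53 and 5.80 in PBMC and 17.9 and 17.5 in day 1. In the other tissues the percentile was taken within the whole list of a library, for the overlapping peak with the highest fold enrichment. NMIs without a peak there were left out. NMIs common to both day 2 replicates overlapped 76.3% of those higher in PBMC, 99.6% of those higher in day 1 and 79.7% of all. Those higher in PBMC had a median percentile of 88.6 and 82.5 in muscle, 85.7 and 80.8 in brain, 65.4 and 62.9 in sperm and 43.8 and 46.0 in day 2 libraries. Those higher in day 1 had 49.9 and 53.6 in muscle, 56.3 and 62.4 in brain, 76.5 and 79.4 in sperm and 81.1 and 82.5 in day 2 libraries. Over all 68546 NMIs the median percentiles were 67.0 and 68.5 in muscle, 69.7 and 73.7 in brain, 68.2 and 71.3 in sperm and 58.6 and 58.8 in day 2 libraries. Against these, those higher in PBMC ranked higher in muscle and brain, lower in day 2 and slightly lower in sperm, and those higher in day 1 the other way round. No test was run over NMIs. PBMC is the only tissue without a listed input library, and the part of inputs in these percentiles was not tested.

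The fourth widest kept NMI, named after its values were seen, at PIZI01008505v1 from 96 to 6596 had a fold enrichment of 2.72 and 1.90 in PBMC replicates, against 51.4 and 18.2 in day 1 replicates. Day 2 libraries had 26.1 and 26.5 there, sperm 2.80 and 3.53, brain 6.04 and 16.5, and muscle 1.50 and 2.80. Fold enrichment depends on the depth of a library, so these values are a description of single lists.

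On 50 scaffolds, both day 1 replicates had NMIs (87 and 65) and no sperm, brain, muscle or PBMC library had any; both day 2 replicates had NMIs on 17 of them. On 270 scaffolds, both PBMC replicates had NMIs (365 and 363) and no sperm, day 1 or day 2 library had any, and on 143 of these both brain and both muscle replicates had NMIs. No such counts are given for scaffolds in general, so whether these scaffolds differ from them was not tested.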
